A study of Mus musculus with 12 samples.

Results

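AP-1 (activator protein 1) is a dimeric transcription factor assembled from proteins of the Fos, Jun and Atf families. Its mRNAs were followed in mouse gastruloids, aggregates of embryonic stem cells that elongate and pattern in culture, after embedding in dextran hydrogels of different concentration at different times. The 8 genes described are Fos, Fosb, Fosl1, Fosl2, Jun, Junb, Jund and Atf3, out of 55141 genes in the deposited count table. They were chosen by membership of the family, by gene symbol, with earlier results of these same data known. The choice set no threshold on a measured value, and which comparison drew attention to the family is not recorded. All adjusted p-values below come from fits over every gene tested, and for these 8 genes they describe the data rather than give independent support.

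The study asked how the timing and the stiffness of embedding affect gastruloid patterning and gene expression. Gastruloids of the 129/SVEV background received a pulse of a Wnt agonist, were embedded 72 h or 96 h after seeding in a soft (1.0 mM) or a stiffer (1.5 mM) dextran-PEG gel, and were all harvested at 120 h. Bulk RNA-seq of poly-A RNA gave 12 libraries, with 3 replicates in each of the 4 groups: the 1.0 mM gel entered at 72 h or at 96 h, and the 1.5 mM gel entered at 72 h or at 96 h. Freely floating gastruloids were not analysed here, so every library comes from embedded material. Gastruloids embedded at 72 h had spent longer in the gel at harvest than those embedded at 96 h, so age at embedding and time in the gel cannot be told apart. Each library pooled many gastruloids of 1 genetic background. At harvest all of them were freed from the gel with warm dextranase, washed in cold buffer and snap-frozen, and handling time was not recorded per library. The dextranase step had no fixed length and ended once the gastruloids could move freely. Any difference in its length between gels therefore cannot be told apart from gel concentration. In such bulk samples, fewer cells of a type and less RNA per cell cannot be told apart.

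Fos, Fosb, Jun, Junb and Atf3 are textbook immediate-early genes, whose transcripts appear quickly after growth factors, stretch, dissociation or other stress and decay quickly. Fos proteins bind DNA only as partners of Jun proteins, whereas Jun proteins can also pair with each other, and Atf3 pairs with Jun proteins and often represses. Fos transcription responds to signals that reach the factors CREB and SRF at its promoter.

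The stretches before the transcription starts of Fos, Fosb and Junb are shown. These 3 genes were highest in the same libraries and lowest in the same gel (values below). Jun shared this pattern, although its gels overlapped at 72 h, and its stretch is not shown. The printed stretches come from RefSeq promoter windows on GRCm38.p6, the assembly also called mm10. The set of windows held entries for 7 of the 8 members and none for Fosl1. Each line reads 5′ to 3′ on the gene's strand and ends just before the start, or, for Fosb, before bases annotated as exon. Capitals mark TGACG, the short core of the cAMP response element (CRE), and TATAAA, the TATA box.
Fos, chr12:85473640-85473889, plus strand: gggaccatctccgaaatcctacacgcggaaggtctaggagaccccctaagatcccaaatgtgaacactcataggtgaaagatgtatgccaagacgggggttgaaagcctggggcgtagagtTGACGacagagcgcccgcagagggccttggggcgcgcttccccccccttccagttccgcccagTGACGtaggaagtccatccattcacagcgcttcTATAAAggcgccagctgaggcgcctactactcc
Fosb, chr7:19310052-19310295, minus strand: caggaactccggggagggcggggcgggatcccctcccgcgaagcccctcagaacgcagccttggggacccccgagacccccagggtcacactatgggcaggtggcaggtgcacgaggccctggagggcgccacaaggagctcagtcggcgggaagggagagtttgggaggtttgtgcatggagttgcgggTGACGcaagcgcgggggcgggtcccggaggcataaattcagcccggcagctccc
Junb, chr8:84978749-84978998, minus strand: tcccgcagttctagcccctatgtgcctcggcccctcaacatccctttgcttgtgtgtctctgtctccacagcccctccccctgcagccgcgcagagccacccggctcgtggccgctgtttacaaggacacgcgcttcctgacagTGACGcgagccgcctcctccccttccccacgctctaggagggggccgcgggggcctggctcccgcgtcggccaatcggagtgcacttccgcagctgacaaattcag

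The search covered 250 bases before the RefSeq start on both strands, and sites of SRF were not searched for. The CRE core (TGACG or CGTCA, which is also contained in the full CRE) was found in 4 of 7 member windows, those of Fos, Fosb, Junb and Atf3, and in 17.8% of all 32851 windows of the same length. In Fos it lay 129 to 125 and 66 to 62 bases before the start, in Fosb 60 to 56 and in Junb 106 to 102. The window of Jun did not hold it, so the core was not common to all genes with the pattern described above. Fos alone of the 7 held the TATA letters (TATAAA or TTTATA), 33 to 28 bases before its start, against 12.4% of all windows. Neither the full CRE (TGACGTCA, 1.55% of windows) nor the AP-1 site itself (TGANTCA, 6.75%) was found in any of the 7 windows. Only these exact letters were searched for. The Jun window holds TGACATCA, a near match of the full CRE that the search could not count. Near matches were not searched for in the other windows, and their share over all windows is not known. Not every window lay just before the counted gene. The Fosl2 window was annotated as exon in all 250 bases. The RefSeq start of Jund (chr8:70697739) lay upstream of the counted start (chr8:70698949), and that of Atf3 (chr1:191183333) lay inside the counted gene. For these genes, matches or their absence do not describe the stretch before the counted start. All of these are matches of letters and no binding was measured.

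Levels are given first as CPM, the count of a gene scaled by the library total (adjusted with TMM factors), which is the scale for comparing 1 gene between libraries. FPKM, which also divides by transcript length, is used further down to compare genes with each other. Values stand in the order of replicates 1, 2 and 3, and group means carry the SD over n = 3 libraries.

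Fos (ENSMUSG00000021250, mm10 chr12:85473890-85477273) encodes the founding member of the Fos subfamily. Its level in 1.0 mM gels was 79.4, 16.4 and 8.07 CPM after embedding at 72 h and 57.1, 8.79 and 11.9 CPM after embedding at 96 h. The 1.5 mM libraries held 5.46, 4.99 and 4.26 CPM at 72 h and 7.46, 3.77 and 5.65 CPM at 96 h. Every 1.0 mM library was above every 1.5 mM library of the same embedding time, and replicate 1 stood far above its fellows in both 1.0 mM groups. The group means were 34.6 ± 39.0 and 26.0 ± 27.1 CPM in 1.0 mM gels (72 h and 96 h) and 4.90 ± 0.608 and 5.63 ± 1.84 CPM in the stiffer gel.

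Fosb (ENSMUSG00000003545, mm10 chr7:19302696-19310051), a close relative of Fos with the same induction kinetics, showed the widest range of the family. In 1.0 mM gels its level was 83.4, 17.9 and 5.49 CPM at 72 h and 70.1, 10.6 and 12.7 CPM at 96 h. In the stiffer gel it was 3.64, 2.23 and 1.05 CPM at 72 h and 4.80, 1.57 and 2.84 CPM at 96 h. The gels did not overlap at either embedding time, and replicate 1 was the highest library in all 4 groups. The group means were 35.6 ± 41.9 and 31.1 ± 33.8 CPM in 1.0 mM gels and 2.31 ± 1.30 and 3.07 ± 1.63 CPM in 1.5 mM gels.

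Fosl2 (ENSMUSG00000029135, mm10 chr5:32135801-32157842) encodes Fra-2, a Fos protein that lacks the strong activation domain of Fos. Its level was 9.28, 7.92 and 5.87 CPM at 72 h and 7.40, 5.10 and 4.96 CPM at 96 h in 1.0 mM gels. Libraries from 1.5 mM gels held 8.84, 7.12 and 6.08 CPM at 72 h and 6.34, 6.30 and 5.57 CPM at 96 h. The gels overlapped at both times, and replicate 1 was again the highest in each group. Fosl1 (ENSMUSG00000024912, mm10 chr19:5447547-5455946), which encodes Fra-1, had 1 to 11 counts per library and at most 0.442 CPM, was listed at 0 FPKM in all 12 libraries and entered no test. It overlaps Ccdc85b on the other strand (21.9 to 39.3 CPM), so even these few counts are uncertain.

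**Figure D1:**
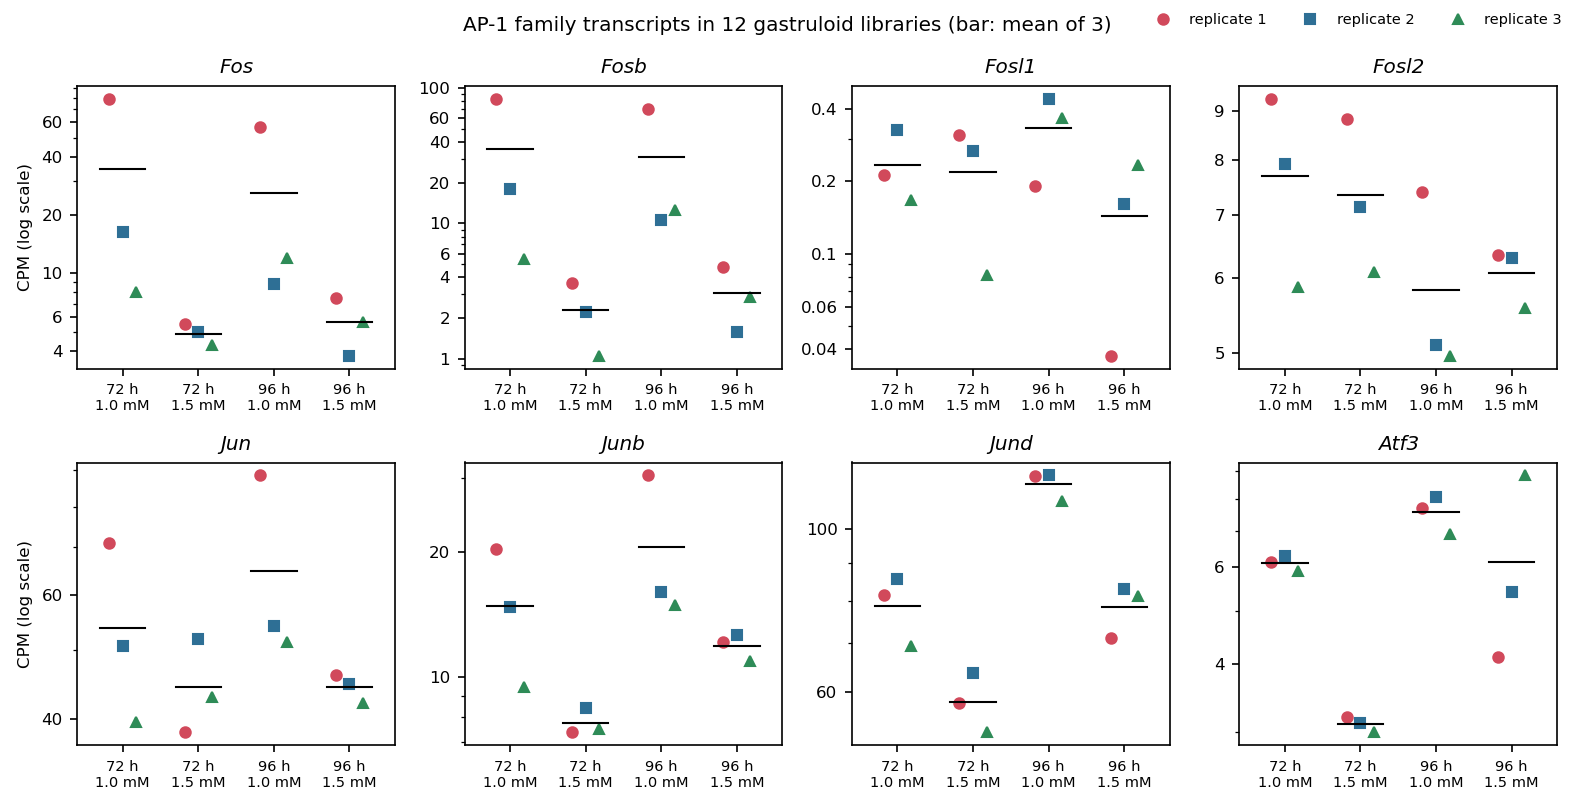
CPM (log axis) of the AP-1 members in the 12 libraries, by embedding time and gel concentration, with each point a library, its shape and colour the replicate number, and the bar the group mean. Fos and Fosb spread widest in 1.0 mM gels, where replicate 1 is at 57.1 CPM or more, while Jund spreads little within each group.

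Jun (ENSMUSG00000052684, mm10 chr4:95049034-95052222) encodes c-Jun, the common partner of the Fos proteins. Its level was 71.1, 50.8 and 39.6 CPM at 72 h and 88.6, 54.2 and 51.4 CPM at 96 h in 1.0 mM gels. The corresponding 1.5 mM values were 38.3, 52.0 and 43.0 CPM at 72 h and 46.2, 44.8 and 42.2 CPM at 96 h. The gels overlapped at 72 h and were apart at 96 h. Junos, an antisense gene over the same interval, held 0.250 to 1.42 CPM, and whether the authors' counting used strand is not stated.

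Junb (ENSMUSG00000052837, mm10 chr8:84976910-84978718) encodes a Jun protein with weaker activation than c-Jun. Its level was 20.3, 14.7 and 9.49 CPM at 72 h and 30.5, 16.0 and 14.9 CPM at 96 h in 1.0 mM gels. With 1.5 mM it was 7.37, 8.41 and 7.50 CPM at 72 h and 12.1, 12.6 and 10.9 CPM at 96 h. The gels did not overlap at either time, and the 72 h and 96 h groups were apart in 1.5 mM gels. The means were 14.8 ± 5.41 and 20.5 ± 8.70 CPM in 1.0 mM gels and 7.76 ± 0.568 and 11.9 ± 0.853 CPM in 1.5 mM gels.

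Jund (ENSMUSG00000071076, mm10 chr8:70698949-70700616) encodes the Jun protein that most cells express without stimulation. Its level was 81.3, 85.6 and 69.3 CPM at 72 h and 118.2, 118.5 and 109.5 CPM at 96 h in 1.0 mM gels. The stiffer gel gave 57.9, 63.6 and 52.9 CPM at 72 h and 71.2, 83.0 and 81.1 CPM at 96 h. The spread within each group was small, and both the gels and the embedding times were apart in every pairing. The antisense gene Gm11175 over the same interval held 0.267 to 0.767 CPM.

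Atf3 (ENSMUSG00000026628, mm10 chr1:191170296-191218039) encodes the stress-induced partner of the Jun proteins. Its level was 6.15, 6.29 and 5.91 CPM at 72 h and 7.70, 8.07 and 6.91 CPM at 96 h in 1.0 mM gels. The 1.5 mM values were 3.20, 3.12 and 3.00 CPM at 72 h and 4.12, 5.42 and 8.84 CPM at 96 h. The gels were apart at 72 h and overlapped at 96 h, where replicate 3 in 1.5 mM was the highest library of all, and the embedding times were apart in both gels. Unlike Fos and Fosb, it did not stand out in replicate 1.

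Differences between gels were tested as 1.5 mM over 1.0 mM with edgeR's quasi-likelihood test over all genes that passed a low-count filter, which 7 of the 8 members did. A gene counted as differentially expressed where the Benjamini-Hochberg adjusted p was below 0.05 and the fold change exceeded 1 in size on the log2 scale. By this rule 0 of 7 members differed at 72 h and 0 of 7 at 96 h, and so did 0% and 0% of the 15563 and 15861 genes tested. At an unadjusted p below 0.05, 1074 genes stood out at 72 h and 1578 at 96 h. DESeq2 called 3 and 9 genes by the same rule, and limma-voom called 0 and 0. With the replicate number as a further term in the edgeR model, 2 of 7 members (Fos and Fosb) were called at each time. That model called 16 of 15563 genes at 72 h and 51 of 15861 at 96 h, and is described in the closing section. At 72 h all 7 members had a negative log2 fold change, from -0.07 for Fosl2 to -3.96 ± 0.87 (SE) for Fosb, with a median of -0.93 against -0.0024 for all genes. At 96 h 6 of 7 were negative and Fosl2 was at 0.06, with a median of -0.56 against -0.0047 for all genes. Without replicate 1 in any group the medians were -0.61 at 72 h and -0.38 at 96 h, with 1 of 7 members positive at each time.

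The size of the Fos and Fosb differences rested in part on replicate 1. At 72 h Fos was -2.82 ± 0.69 and Fosb -3.96 ± 0.87 on the log2 scale (adjusted p = 0.698 for both), and without replicate 1 of the 72 h, 1.0 mM group they were -1.32 and -2.35. At 96 h Fos was -2.20 ± 0.57 (adjusted p = 0.253) and Fosb -3.33 ± 0.67 (adjusted p = 0.133), and without replicate 1 of the 96 h, 1.0 mM group they were -0.88 and -1.91. As ratios of group means, Fos was 7.06 times higher in the softer gel at 72 h and 4.61 times at 96 h. With replicate 1 left out of every group, a choice made after seeing the data, these ratios were 2.65 and 2.20. For Fosb they were 15.4 and 10.1 with all libraries and 7.14 and 5.27 without replicate 1. The direction was the same with and without these libraries.

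Junb, Jund and Atf3 differed by less between gels. Junb was -0.93 ± 0.24 at 72 h and -0.79 ± 0.22 at 96 h (adjusted p = 0.698 and 0.299). Jund was -0.44 ± 0.11 at 72 h and -0.56 ± 0.07 at 96 h (adjusted p = 0.698 and 0.0504). Atf3 was -0.98 ± 0.17 at 72 h and -0.30 ± 0.23 at 96 h (adjusted p = 0.698 and 0.711). Leaving out replicate 1 changed little for Jund (ratio of means 1.35 at 72 h with all libraries and 1.33 without) and for Atf3 at 72 h (1.97 and 1.99). For Junb the ratio passed from 1.91 to 1.52 at 72 h and from 1.72 to 1.31 at 96 h, where its log2 fold change was then -0.38. For Jun the ratio at 72 h passed from 1.21 to 0.952, so its direction at that time was the opposite without replicate 1.

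Across both embedding times, with all 12 libraries in 1 fit and the time as a covariate, 0 of 7 members and 1 of 16388 genes (0.0061%) met both criteria in the gel comparison. At an unadjusted p below 0.05 it was 2075 genes, while DESeq2 called 9 genes and limma-voom 0. On the adjusted p alone, 1 of 7 members passed, against 0.0305% of all genes. That member was Jund, whose stiffer-gel level was lower, at a log2 ratio of -0.50 (SE 0.07, adjusted p = 0.0132), although without replicate 1 in any group it did not pass (-0.44, adjusted p = 0.0750). Fosb (-3.63 ± 0.65, adjusted p = 0.0707), Fos (-2.51 ± 0.54, adjusted p = 0.109) and Junb (-0.86 ± 0.18, adjusted p = 0.109) did not pass. Their calls depended on the model: DESeq2 gave adjusted p-values of 0.00778 for Fos, 0.000249 for Fosb and 0.00101 for Junb. Over the 20 alternatives they ran from 4.2e-133 to 0.292 for Fos, from 3.7e-242 to 0.252 for Fosb and from 5.4e-14 to 0.292 for Junb. The lowest came from edgeR without a low-count filter, where the spread estimate of each gene was replaced by the trend at its abundance. Without replicate 1 in any group, edgeR gave -2.61 for Fosb (adjusted p = 0.0475) and -1.27 for Fos (adjusted p = 0.0750). Jun (-0.41 ± 0.15), Atf3 (-0.62 ± 0.17) and Fosl2 (-0.004) had adjusted p-values of 0.270, 0.169 and 0.993.

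Read without a model, 5 of 7 members had every 1.5 mM library below every 1.0 mM library at 72 h, against 5.19% of all genes tested. At 96 h it was also 5 of 7, against 7.97%, and 4 of 7 members did so at both times, against 0.97%. The 4 were Fos, Fosb, Junb and Jund. Atf3 was the fifth at 72 h and Jun the fifth at 96 h. The members were picked with results known, so these counts are descriptions.

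**Figure D2:**
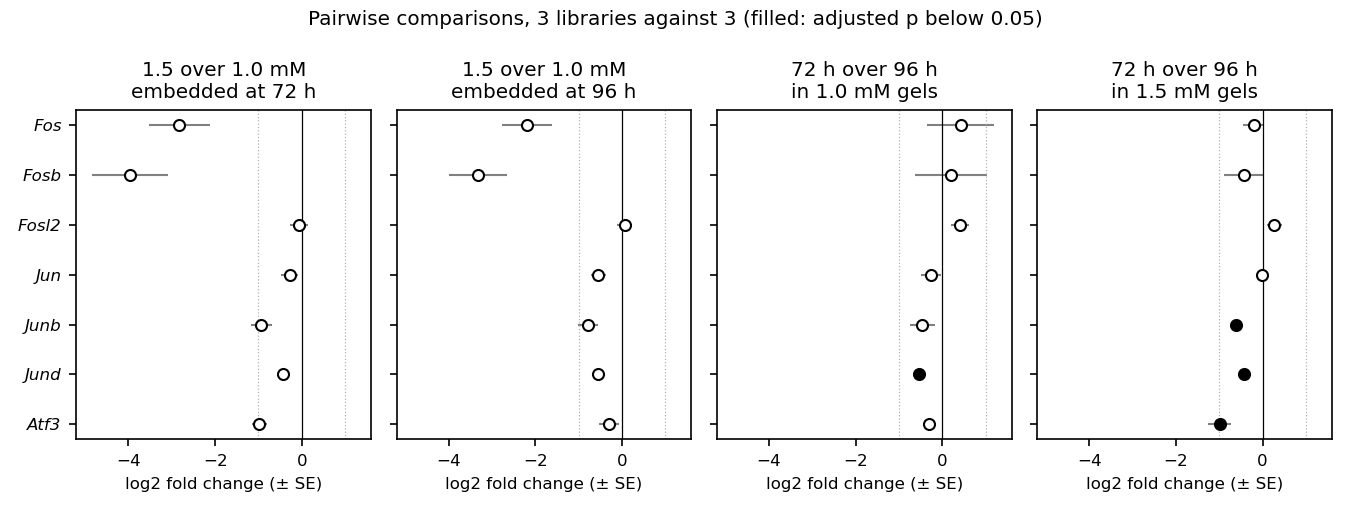
Log2 fold changes of the 7 tested members from edgeR with bars of 1 SE, for the stiffer over the softer gel and for embedding at 72 h over 96 h, filled where the adjusted p is below 0.05. Fos and Fosb lie at -2.20 or below in the gel comparisons with wide bars, whereas Jund lies between -0.44 and -0.56 with narrow ones.

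Embedding time was compared as 72 h over 96 h. In 1.0 mM gels 0 of 7 members met both criteria, against 4.3% of all genes, and in 1.5 mM gels 0 of 7, against 3.18%. Across both gels it was again 0 of 7, against 4.66%. At an adjusted p below 0.05 with no fold threshold, 1 of 7 members passed in 1.0 mM gels (9.24% of all genes), 3 of 7 in 1.5 mM gels (19.3%) and 3 of 7 across both (31.1%). All of these were lower after embedding at 72 h.

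Jund was the member that passed in each of the 3 fits. It fell by 0.55 in 1.0 mM gels (SE 0.09, adjusted p = 0.00375), by 0.44 in 1.5 mM gels (SE 0.09, adjusted p = 0.0107) and by 0.49 across both (SE 0.07, adjusted p = 7.6e-05). Without replicate 2 of the 96 h, 1.5 mM group the value in 1.5 mM gels was -0.39 (adjusted p = 0.0511). Junb fell by 0.62 in 1.5 mM gels (SE 0.12, adjusted p = 0.0100) and by 0.54 across both (SE 0.18, adjusted p = 0.0378), and was -0.46 in 1.0 mM gels (adjusted p = 0.389). With all 12 libraries in 1 fit the value in 1.5 mM gels was -0.61 (adjusted p = 0.134), and the call was not made. The Junb call across both gels was lost when any of 9 of the 12 libraries was left out, most of all without replicate 1 of the 96 h, 1.0 mM group (-0.36, adjusted p = 0.120).

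Atf3 fell by 0.98 in 1.5 mM gels (SE 0.27, adjusted p = 0.0318) and by 0.62 across both (SE 0.17, adjusted p = 0.0129), and was -0.30 in 1.0 mM gels (adjusted p = 0.256). In 1.5 mM gels replicate 3 of the 96 h group (8.84 CPM) carried much of this: without it the value was -0.62 (adjusted p = 0.0933). The call there was also lost without replicate 2 of either group (adjusted p = 0.0823 for 72 h and 0.0664 for 96 h) and without replicate 3 of the 72 h group (adjusted p = 0.0959). Across both gels the Atf3 call held with each library left out in turn.

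Fos and Fosb did not pass by embedding time, at 0.42 ± 0.77 and 0.20 ± 0.83 in 1.0 mM gels and -0.21 and -0.43 in 1.5 mM gels (adjusted p from 0.555 to 0.919). In 1.0 mM gels their direction was set by single libraries. Without replicate 1 of the 72 h group Fos was -1.08 and Fosb -1.40, and without replicate 1 of the 96 h group they were 1.74 and 1.61. Across both gels Jun was -0.13 (adjusted p = 0.519). The members with a positive sign there were Fosl2, at 0.34 ± 0.14 (adjusted p = 0.0764), and Fos, at 0.16 (adjusted p = 0.846).

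By separation of the libraries, every 72 h library lay below every 96 h library for 2 of 7 members in 1.0 mM gels (13.6% of all genes), for 3 of 7 in 1.5 mM gels (19.8%) and for 2 of 7 in both gels (7.51%). The 2 were Jund and Atf3, joined by Junb in 1.5 mM gels.

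Whether the effect of embedding time differed between gels was tested as an interaction. No member passed in edgeR (0 of 7), nor did any of the 16388 genes (0%), while 708 genes had an unadjusted p below 0.05, DESeq2 called 0 and limma-voom 0. Atf3 had the member value with the smallest p, -0.67 ± 0.31 (unadjusted p = 0.0446), and all members had adjusted p-values of 0.953 or more.

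Replicate numbers were compared because 4 libraries share each number. The labels do not say that a number marks a culture day or batch. With the group means in the model, 2 of 7 members differed between numbers at an adjusted p below 0.05, against 3.11% of all genes. Fos was -1.78 in number 2 and -1.82 in number 3 relative to number 1 on the log2 scale (adjusted p = 0.0163), and Fosb was -2.05 and -2.47 (adjusted p = 0.00290). The Fos call was lost without replicate 1 of the 72 h, 1.0 mM group (adjusted p = 0.109) or without replicate 1 of the 96 h, 1.0 mM group (adjusted p = 0.116), whereas Fosb passed with any 1 library left out. Fosl2 (-0.27 and -0.49, adjusted p = 0.0702), Junb (-0.34 and -0.61, adjusted p = 0.111) and Jun (-0.23 and -0.42, adjusted p = 0.201) had the same signs. Jund (0.11 and -0.07) and Atf3 (0.11 and 0.22) had adjusted p-values of 0.250 and 0.715.

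The excess of replicate 1 was larger in 1.0 mM than in 1.5 mM gels for Fos and Fosb. In 1.0 mM gels Fos in replicate 1 was 4.83 times the next highest library at 72 h and 4.78 times at 96 h, and in 1.5 mM gels it was 1.10 and 1.32 times. For Fosb the factors were 4.65 and 5.52 in 1.0 mM gels and 1.64 and 1.69 in 1.5 mM gels. Whether this excess differs between gels was not tested. Replicate 1 was the highest library in both 1.0 mM groups for 5 of 7 members (Fos, Fosb, Fosl2, Jun and Junb), and for 16.4% of all 16388 genes. In all 4 groups it was the highest for Fos, Fosb and Fosl2, and for 6.44% of all genes.

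FPKM allows the members to be ordered by level. Over the 12 libraries Jund led with 38.1 ± 10.7 FPKM (SD, n = 12), followed by Jun with 12.7 ± 3.76, Fos with 6.53 ± 9.08 and Junb with 5.86 ± 2.92. Fosb at 3.74 ± 5.85, Atf3 at 2.22 ± 0.811 and Fosl2 at 0.789 ± 0.160 FPKM came below, and Fosl1 was listed at 0. Jund stood clear of Jun and Atf3 of Fosl2, whereas each pair of neighbours from Jun down to Atf3 overlapped in range. The order depended on the group: in the 72 h, 1.5 mM group it was Jund, Jun, Junb, Fos, Atf3, Fosl2 and Fosb, with no overlap between neighbours.

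The Jun genes made up most of the family's summed FPKM, with Jun and Jund together at 48.7% to 84.3% over all libraries. Fos and Fosb together made up 7.55% to 40.6% after 72 h and 6.35% to 27.5% after 96 h embedding in 1.0 mM gels. In 1.5 mM gels their share was 4.18% to 6.26% and 2.76% to 6.76%.

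**Figure D3:**
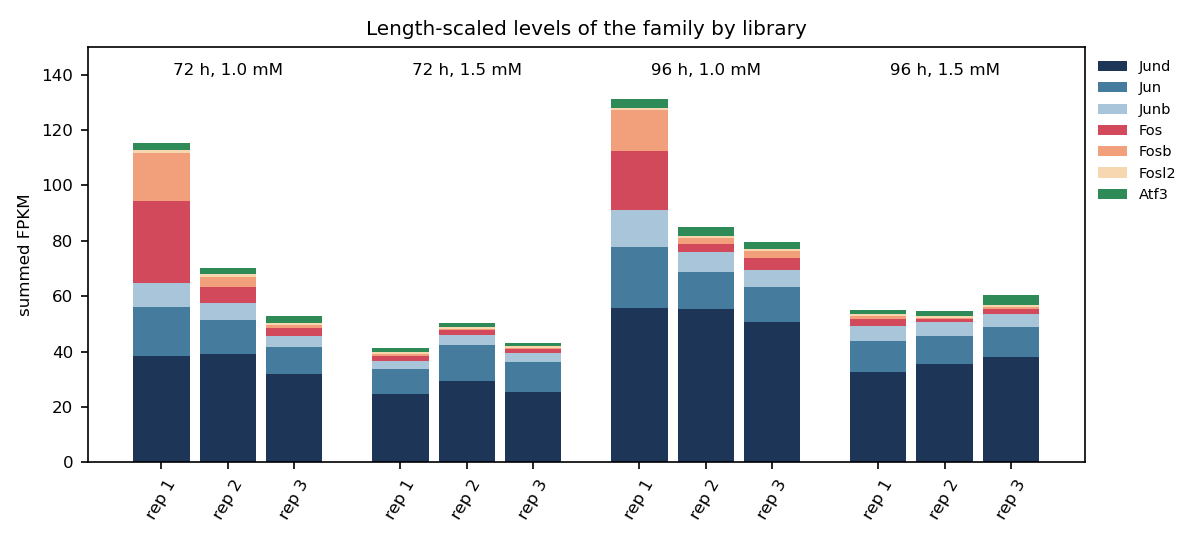
FPKM of the AP-1 members stacked by library, in the 4 groups. Jund is the largest block in each library, and the Fos and Fosb blocks widen in replicate 1 of both 1.0 mM groups, where their share of the sum reaches 40.6%.

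The genes whose pattern was most like each member's were sought among 13806 genes with a mean of at least 1 CPM, by Pearson's r of log2 CPM over the 12 libraries, which share groups and replicate numbers. For Fos the closest were Fosb (r = 0.970), Egr1 (0.927) and Cntnap1 (0.921), and for Fosb they were Fos, Egr1 (0.965) and Socs3 (0.924). Among the genes closest to Jun were Junb (0.886) and Fos (0.861), and Junb was closest to Socs3 (0.951), Rpap1 (0.899) and Jun. Jund was closest to Hspb1 (0.939), Gadd45a (0.930) and Ier2 (0.922). Atf3 was closest to Fbxw5 (0.952), Lockd (0.920) and Letmd1 (0.914), and Fosl2 to Tdgf1 (0.931), Cyp2s1 (0.923) and Aga (0.918).

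With each group's mean taken off, the remaining variation between replicates still tied Fos to Fosb (r = 0.959) and Jun to Junb (0.965). The nearest genes to Fos were then Mbd1 (0.983), Gtpbp2 (0.966) and Fosb, and those to Fosb were Mbd1 (0.972), Man2a2 (0.962) and Fos. Next to Junb, Jun was closest to Cttn (0.945) and Patj (0.929), and Carmil3 (0.926) was among the genes closest to Junb. Fosl2 was closest to Npepl1 (0.970), Proser2 (0.965) and Pcyt2 (0.958), and Jund to Psme2 (0.916), Zpr1 (0.896) and Deaf1 (0.896). Atf3 was closest to Prelid3a (0.950), Rpusd3 (0.937) and Tspyl3 (0.906), and its r with Fos, Fosb, Fosl2, Jun and Junb lay between -0.0686 and -0.0113.

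Other immediate-early genes were described beside the family. In the gel comparison across both times, 1 of 29 tested passed, and 22 of 29 were lower in 1.5 mM gels, with a median log2 fold change of -0.32 against -0.62 for the AP-1 members and -0.0039 for all genes. The gene that passed was Egr1, a zinc-finger immediate-early factor, at 113.0, 68.1 and 48.9 CPM (72 h) and 131.6, 36.6 and 41.4 CPM (96 h) in 1.0 mM gels. Egr1 in 1.5 mM gels was at 23.9, 14.3 and 11.0 CPM at 72 h and 21.7, 10.6 and 15.6 CPM at 96 h. It fell by 2.18 (SE 0.32, adjusted p = 0.0257), with no overlap between gels at either time. The 3 genes of this list with the highest FPKM, Ier2 (63.9), Rhob (16.7) and Myc (14.3), had gel values of -0.20, -0.38 and -0.24 with adjusted p-values of 0.153, 0.169 and 0.312.

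Between replicate numbers, 6 of 29 of these genes differed. Egr1, Dusp1, Klf2, Rhob and Sik1 were lower in numbers 2 and 3 than in number 1, and Plk2 was higher. Replicate 1 was the highest library in both 1.0 mM groups for 16 of 29. By embedding time across both gels 2 of 29 passed, Myc with -1.25 ± 0.10 (adjusted p = 5.9e-07) and Nr4a3 with 1.07 ± 0.30 (adjusted p = 0.0140).

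Other bZIP genes, genes upstream of AP-1 and candidate target genes gave no gel call in edgeR. Of the other bZIP genes listed, among them Atf, Creb and Maf genes, 0 of 22 passed (median 0.04). Atf4 (130.8 FPKM), Atf5 (56.4) and Nfe2l1 (26.1) were the most abundant of these. Of the kinases and factors upstream, including the MAP kinases and Srf with its partners, 0 of 20 passed (median -0.04), with Mapk3 (78.2 FPKM) and Map2k2 (47.0) among the most abundant. Of candidate AP-1 target genes, such as proteases and matrix genes, 0 of 15 passed (median -0.09).

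By embedding time, 3 of these 15 candidate targets passed across both gels, all lower at 72 h, the protease genes Plau (-2.09 ± 0.35) and Mmp9 (-1.08 ± 0.14) and the matrix gene Spp1 (-1.23 ± 0.23). Batf3 was the gene of the other bZIP list that passed (-1.03 ± 0.35, adjusted p = 0.0345), at under 1 CPM in every library, and no upstream gene met both criteria. Between replicate numbers the targets Vim and Fn1 differed, both lower in numbers 2 and 3, and 0 of 22 other bZIP genes and 0 of 20 upstream genes did.

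**Figure D4:**
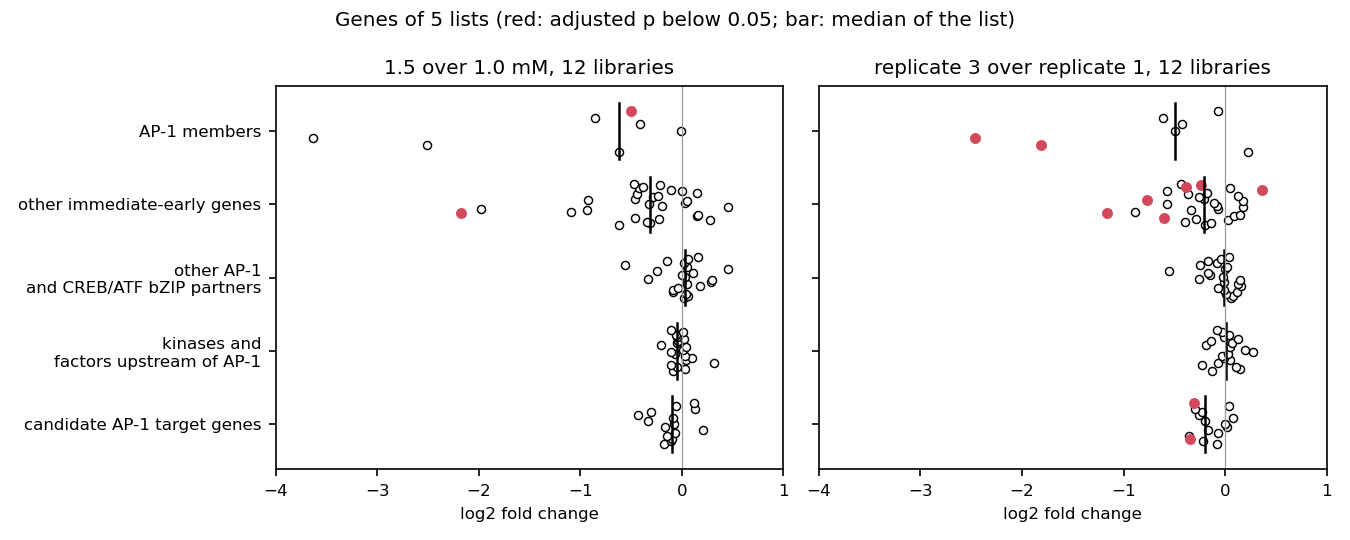
Log2 fold changes of the genes of each list for 1.5 mM over 1.0 mM gels (left) and for replicate number 3 over number 1 (right) from fits to all 12 libraries, each point a gene, red where the adjusted p is below 0.05, and the bar the list's median. In the gel comparison the medians are -0.62 for the AP-1 members and -0.32 for other immediate-early genes, and lie near 0 for the other bZIP genes (labelled partners) and upstream genes.

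Stress lists and cell type markers were read in the same libraries. In the gel comparison 0 of 13 heat shock and unfolded protein genes, 0 of 10 Atf4 branch genes and 0 of 10 p53 targets passed, with medians of 0.02, -0.20 and -0.02. Between replicate numbers 7 of 10 p53 targets differed, all higher in numbers 2 and 3 than in number 1, as did Ddit4 of the Atf4 branch (lower) and no heat shock gene. The summed p53 list was 754 to 958 CPM in replicate 1 libraries, 939 to 1180 in number 2 and 915 to 1184 in number 3. Of cardiac and anterior mesoderm markers 6 of 8 differed between numbers, all lower in numbers 2 and 3, with a summed level of 188 to 907, 160 to 480 and 63.7 to 520 CPM in numbers 1, 2 and 3. Endothelium markers differed for 4 of 6 and endoderm markers for 2 of 7, all lower in number 2 than in number 1, and axial markers for 3 of 9, all higher in numbers 2 and 3, while 0 of 6 neural and 0 of 8 naive pluripotency markers did. The part of these in the Fos and Fosb differences was not tested.

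By embedding time across both gels, 7 of 8 cardiac markers were higher at 72 h (median 1.75) and 5 of 8 naive pluripotency markers lower (median -1.55). Axial markers were called for 3 of 9, with 1 higher and 2 lower at 72 h. Endoderm markers were called for 1 of 7 (higher at 72 h) and neural markers for 1 of 6 (lower). For endothelium markers it was 0 of 6, for heat shock genes 0 of 13, for Atf4 branch genes 0 of 10 and for p53 targets 0 of 10. The share over all genes in this comparison was 4.66%. The summed cardiac list was 480 to 907 and 373 to 721 CPM after 72 h, and 63.7 to 188 and 182 to 316 CPM after 96 h, with the softer gel first. Its part in the Jund, Junb and Atf3 differences was not tested. No gene of these marker lists met both criteria between gels in edgeR, at either time or across both. All 8 cardiac markers were nonetheless at higher values in 1.5 mM gels at 96 h (median log2 fold change 0.93) and at lower values at 72 h (median -0.28). The part of this in the gel differences of the AP-1 members was not tested. The axial markers of gastruloids were present apart from Msgn1, below 1 CPM in all libraries, and the 6 blood and macrophage markers summed to at most 1.35 CPM, with Hbb-bt and Ptprc at 0 and Gata1 the only one tested (1.85 by embedding time, higher at 72 h).

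Total counts ran from 23011791 to 27609422 per library, and mitochondrial genes took 1.68% to 3.02% of them. The non-coding gene CT010467.1 took 0.207% to 6.12%, the highest in replicate 1 of the 72 h, 1.5 mM group and then 4.21% in replicate 2 of the 96 h, 1.5 mM group. Over the 12 libraries, r of log2 CPM with the mitochondrial share was 0.652 for Jund, 0.528 for Junb and 0.484 for Atf3, and 0.101 and 0.167 for Fos and Fosb. With the share of CT010467.1, r was -0.525 for Jun, -0.435 for Junb, -0.401 for Jund and -0.362 for Atf3. It was -0.367 for Fos, -0.315 for Fosb and 0.393 for Fosl2. With total counts, r of the tested members ran from -0.579 for Fosl2 to 0.473 for Jund. The part of these measures in the results was not tested.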

How the data were processed

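The authors trimmed reads with cutadapt 4.4, aligned them to mm10 using STAR 2.7.10b and their own version of the Ensembl annotation, and deposited unnormalized read counts for each gene. The methods name STAR as the source of the counts, the deposited table's name refers to HTSeq, and the strand setting is not stated. The authors computed FPKM with Cufflinks 2.2.1.3 and deposited it in a separate table. Their deposited table of DESeq2 comparisons, with its fold changes and p-values, was not used.

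Members were matched by symbol and Ensembl identifier. Groups came from the labels, with 3 libraries each. The study's methods call all replicates biological, and what the replicate numbers mark is not stated. The 36 mitochondrial genes were left out, low genes were removed by filterByExpr (counts of at least 10, total of at least 15), and TMM scaling and the quasi-likelihood functions glmQLFit and glmQLFTest of edgeR 4.0.16 (R 4.3.3) were applied, in a fit of its own for each pair of groups and with all 12 libraries for the other tests. Correction was by Benjamini-Hochberg over all genes tested. Differential expression needed an adjusted p under 0.05 and a log2 fold change beyond 1 in either direction, with no fold threshold for replicate numbers. The procedure was tested on simulated data. DESeq2 1.42.0 and limma 3.58.1 (voom), other normalization and filters, and leaving out libraries were alternatives. At 23011791 to 27609422 counts per library, the spread between replicates exceeded the counting error (from the mean count) in all but 4 of 28 groups of the 7 tested members, of which 2 were the 72 h groups of Atf3 (70 to 74 counts in 1.5 mM gels).

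Members and gene lists were chosen with earlier results of these data known. All members were named. For each, the 3 genes with the highest r were named. Of the other lists, genes that met a comparison's criteria were named where 5 or fewer did, besides the 3 highest by FPKM in 3 of the lists. Some genes that these rules select are not reported here. Python 3.11.15 with pandas 2.3.3 read the sequences and drew the figures.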

Additional observations from a re-analysis of the deposited data

How the results depend on the processing

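The number of members differentially expressed between gels depended on the model. In edgeR without the low-count filter it was 2 (Fos and Fosb) at 72 h, 2 at 96 h and 2 across both times, and DESeq2 also gave 2 across both. Over all genes the fits without the filter called 56 of 28603, 65 of 29248 and 40 of 31406, and DESeq2 called 9 of 14450 across both. Without the filter the prior degrees of freedom of the fit were infinite in all comparisons but embedding time in 1.5 mM gels (51.35), against 5.474 to 8.536 with it, so single genes kept no spread of their own. With the numbers of the 3 replicates as a replicate block, Fos and Fosb were called at 72 h (Fos -2.26, adjusted p = 0.0498, and Fosb -3.56, adjusted p = 0.000639), at 96 h (-1.87, adjusted p = 0.000217, and -3.09, adjusted p = 4.5e-07) and across both times (-2.06, adjusted p = 0.0188, and -3.29, adjusted p = 0.000426). The block gave 16, 51 and 7 calls over all genes in these comparisons, among them 1 of 8 cardiac markers at 72 h, and 4 of 8 cardiac and 1 of 9 axial markers at 96 h. Deviations from group means correlated at 0.0365 to 0.313 in the 18 pairs of libraries sharing a number, 13 of them above 0.1, and at -0.262 to 0.111 in the 36 other pairs. The median was 0.156 in the pairs sharing a number and -0.0765 in the others. In each comparison at least 1 sharing pair was below 0.1, and the labels give the numbers no meaning, so the numbers were not taken as pairs. Variation shared by a number therefore stayed in the error of the reported gel and time fits. Their adjusted p-values depend on that choice.

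With number 1 left out in all groups, chosen after seeing the data, 1 member (Fosb) was called at 96 h and 1 across both times, and 1 (Atf3) by embedding time in 1.5 mM gels. Over all genes these fits called 2 of 15862, 3 of 16409 and 700 of 15757. With no fold threshold the count was 1 by gel across both times, and 1, 3 and 3 by embedding time in 1.0 mM, in 1.5 mM and across both gels. Leaving out 1 library at a time gave 0 to 1 by embedding time in 1.5 mM gels (Atf3, without replicate 1 of either 1.5 mM group), 0 to 1 by gel across both times (Fosb, without replicate 3 of the 72 h, 1.0 mM group or replicate 1 of the 72 h, 1.5 mM group), and 1 to 4 between replicate numbers (main 2), the 4 without replicate 1 of the 72 h, 1.5 mM group. Over all genes, the fits that called Atf3 called 636 of 16064 (without the 72 h library) and 478 of 15961 (without the 96 h library). Those that called Fosb called 2 of 16724 and 8 of 16754, in the order given. The fit with 4 members between replicate numbers called 617 of 16754 genes, against 510 of 16388 in the reported fit. Between replicate numbers DESeq2 gave 4 members and 1057 of 13865 genes, and edgeR without the filter gave 5 members and 1738 of 31406 genes.

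Of 973 values of single members under an alternative, 898 kept direction and side of the threshold, 28 passed it only there, 2 lost it (Fos between replicate numbers) and 45 changed sign, none of them past the threshold in the reported fit. That threshold includes the fold change. Read on the adjusted p alone, the 10 results below 0.05 in the reported fit stayed below it in 158 of 178 alternative values and were above it in 20, of which 10 were Junb by time across both gels and 5 Atf3 by time in 1.5 mM gels. Among these were limma-voom for both (adjusted p = 0.0571 for Junb and 0.0540 for Atf3). Outside the removal of single libraries, the sign changed for Fosb by time in 1.0 mM gels (limma-voom, -0.071), for Jun by time in 1.5 mM gels (DESeq2 0.0021, all libraries in 1 fit 0.0011, without number 1 0.12), for Jun by gel at 72 h (without number 1, 0.069) and for Fosl2 by gel across both times (limma-voom 0.0067, replicate block 0.0064, without number 1 0.083). With single libraries left out, values by time in 1.0 mM gels ran from -1.08 to 1.74 for Fos, from -1.40 to 1.61 for Fosb and from -0.51 to 0.030 for Jun. In 1.5 mM gels they ran from -0.42 to 0.048 for Fos, from -0.93 to 0.050 for Fosb and from -0.13 to 0.089 for Jun. Across both gels they ran from -0.64 to 0.73 for Fos, from -0.99 to 0.68 for Fosb and from -0.23 to 0.013 for Jun. By gel, Fosl2 ran from -0.23 to 0.090 at 72 h, from -0.045 to 0.27 at 96 h and from -0.076 to 0.079 across both. The interaction ran from -1.94 to 0.88 for Fos, from -2.04 to 0.98 for Fosb, from -0.34 to 0.030 for Fosl2, from -0.026 to 0.52 for Jun and from -0.55 to 0.15 for Junb. For the limma-voom and DESeq2 differences the cause was not tested. Depth left Fosl1 untested, and counting error exceeded the replicate spread for Atf3 at 72 h in both gels and, in 1.5 mM gels, for Fosl2 at 96 h and Junb at 72 h.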
